A study of Mus musculus with 11 samples.

Results

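Haemoglobin and neutrophil transcripts are commonly read as a sign of blood left in a tissue, and 8 such genes were followed library by library in hippocampal RNA of mice given insulin through the nose. The genes were chosen by symbol: the adult globins Hba-a1, Hba-a2, Hbb-bs and Hbb-bt, the red cell genes Alas2 and Slc4a1, and the neutrophil genes S100a8 and S100a9. All 8 were found among the 46202 gene rows of the table. Of these, 7 passed the filter on low values and were tested, whereas Alas2 did not pass.

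The study asked how insulin acts on lipid metabolism in the brain. RNA was sequenced in 11 libraries of hippocampus from male C3-C57B1/6J mice of 2 to 3 months, which were single-housed, anaesthetized with isoflurane and killed at the end of each time point. The control group had saline through the nose (n = 3, with a time label of 0 min and a treatment label of untreated). The insulin groups had 2.4 IU per nare and were sampled at 15 min (n = 2, replicates 1 and 3; replicate 2 was not analysed here), 1 h (n = 3) and 6 h (n = 3). All groups are of 1 strain and sex, and no group carries a mutation in the labels. Perfusion to wash blood from the vessels is not mentioned in the labels. Whether each library comes from a separate animal is not stated outright, and p-values therefore cover only library-to-library spread, part of which may be technical.

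Red cells carry oxygen on haemoglobin, a tetramer of alpha and beta globin chains that each hold a haem. Mature red cells have lost their nucleus but keep globin mRNA for a time, so that globin transcripts are commonly seen in bulk RNA of tissues that hold blood. S100a8 and S100a9 form calprotectin, an abundant cytosolic protein of neutrophils, and their mRNA is a usual marker of these cells. In bulk tissue, fewer cells of a type and less RNA per cell cannot be told apart.

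Values are the authors' log2 signals, on which a difference of 1 is a factor of 2. The table calls them log values without naming the base, which was taken as 2 from their range, and every fold value here depends on it. How they were scaled for gene length is not given in the sources used here, so levels are compared between libraries and not between genes. Every library shares a minimum of -13.64, a median of -3.20 and a maximum of 16.00, and holds a value for 32037 to 33653 rows. Sequencing depth is unknown. The numbers that end the column names run by group, with saline at 1 to 3, the 6 h group at 4 to 6, the 15 min group at 7 and 9 and the 1 h group at 10 to 12. Any order effect and the treatment cannot be told apart. All 14 hippocampal marker genes had a value in every library. The library of 1 h replicate 2 stood apart for Slc4a1, S100a8 and S100a9, and changes at 1 h that it turned or moved most are given with and without it.

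The 2 globin gene pairs are near-identical copies, which bears on how far their rows can be read apart. The alpha genes lie on chromosome 11 in GRCm38.p6, Hba-a1 from 32283672 to 32284486 and Hba-a2 from 32296492 to 32297310, with 12005 bases between them. Their coding sequences (GENCODE M21) are equal at 428 of 429 positions. The beta genes lie on chromosome 7, Hbb-bt from 103812524 to 103813923 and Hbb-bs from 103826523 to 103827928, and are equal at 443 of 444 positions. Reads from either member of a pair could be split or shared by the authors' counting, so the division of signal within a pair is uncertain. S100a8 (90669071 to 90670034) and S100a9 (90692630 to 90695721) are neighbours on chromosome 3, with 22595 bases between them. Slc4a1 lies on chromosome 11 (102348820 to 102365281) and Alas2 on chromosome X (150547417 to 150570622).

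Promoter windows were marked in capitals at every match, on either strand, of 4 motifs. These were CCAAT (a common promoter element) and CACCC (the core of Klf sites). The others were TATAA (the core of the TATA box) and GATAA (the core of GATA factor sites). The 150 bases before the RefSeq start of globin genes and, for comparison, of the neutrophil genes (GRCm38.p6) are shown. They are, in order, Hba-a1 on the plus strand at chr11:32283522-32283671, Hbb-bs on the minus strand at chr7:103827929-103828078, Hbb-bt on the minus strand at chr7:103813924-103814073, S100a8 on the plus strand at chr3:90668921-90669070 and S100a9 on the minus strand at chr3:90695722-90695871, each written 5′ to 3′ in the direction of transcription.
Hba-a1: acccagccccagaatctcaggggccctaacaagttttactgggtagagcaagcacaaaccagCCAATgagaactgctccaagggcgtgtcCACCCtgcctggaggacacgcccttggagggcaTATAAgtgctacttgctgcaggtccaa
Hbb-bs: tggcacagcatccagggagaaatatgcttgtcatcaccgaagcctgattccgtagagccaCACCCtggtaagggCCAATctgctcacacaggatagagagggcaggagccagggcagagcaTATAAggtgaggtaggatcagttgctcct
Hbb-bt: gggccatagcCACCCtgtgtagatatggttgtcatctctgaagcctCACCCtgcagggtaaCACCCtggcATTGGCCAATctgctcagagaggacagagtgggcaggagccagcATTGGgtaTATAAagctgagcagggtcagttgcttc
S100a8: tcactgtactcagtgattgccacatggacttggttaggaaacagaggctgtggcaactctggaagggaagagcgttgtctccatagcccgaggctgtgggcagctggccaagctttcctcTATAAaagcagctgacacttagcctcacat
S100a9: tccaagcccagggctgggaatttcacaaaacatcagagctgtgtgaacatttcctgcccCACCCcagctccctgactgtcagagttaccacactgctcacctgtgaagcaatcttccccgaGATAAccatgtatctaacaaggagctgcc

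The Hba-a2 promoter is the same sequence as that of Hba-a1, shifted by 3 bases, and is identical over all 247 bases compared. Hbb-bs and Hbb-bt are 51.0% identical over 249 bases compared without gaps. Both comparisons used the 250 bases before the start, so this percentage is not that of the 150 bases shown. The motif CCAAT was found in all 4 globin windows, and so were the CACCC motif and the TATAA motif. Among the 7 members with a promoter entry, TATAA was also found in S100a8, CACCC in Alas2 and S100a9, and GATAA in Alas2 and S100a9. Of all 32851 promoters, windows of the same length held CCAAT in 24.5%, CACCC in 37.4%, TATAA in 14.2% and GATAA in 13.3%. No 2 matches in these windows shared a base, and a match is a description of letters, not a bound site.

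The alpha globin row Hba-a1, which encodes the alpha chain, had log2 signals of 5.29, 5.22 and 4.92 in saline, 5.57 and 4.54 at 15 min, 4.90, 5.62 and 5.35 at 1 h, and 4.67, 4.69 and 4.76 at 6 h. Its copy Hba-a2 had 4.82, 4.50 and 4.31 in saline, 4.76 and 3.72 at 15 min, 4.30, 4.97 and 4.62 at 1 h, and 4.07, 3.80 and 4.18 at 6 h. In both rows every 6 h library lay below every saline library, while the 15 min and 1 h libraries spanned or overlapped the saline range.

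The beta globin row Hbb-bs had log2 signals of 5.26, 5.20 and 5.10 in saline, 5.62 and 4.65 at 15 min, 4.97, 5.61 and 5.47 at 1 h, and 4.87, 4.40 and 4.95 at 6 h. Its copy Hbb-bt had 2.52, 2.59 and 2.37 in saline, 2.88 and 1.87 at 15 min, 2.01, 3.05 and 2.63 at 1 h, and 2.01, 1.74 and 2.15 at 6 h. In both beta rows 15 min replicate 1 and 1 h replicate 2 were the highest libraries and 15 min replicate 3 lay near the 6 h libraries, and every 6 h library was again below every saline library. The 15 min pair thus held 1 of the highest and 1 of the lowest globin libraries of the series.

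**Figure D1:**
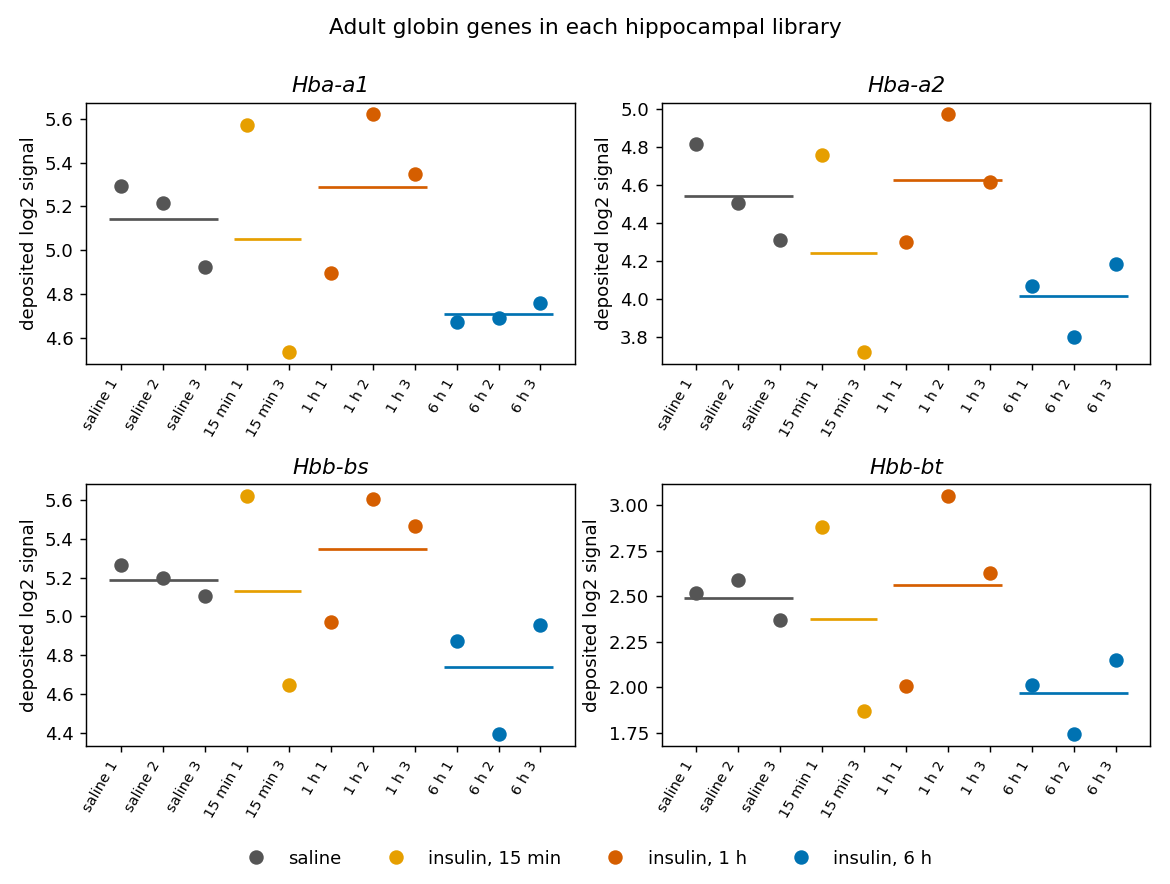
Deposited log2 signal of the 4 adult globin rows in each library (points) with the group mean (lines), on axes that differ between panels and do not start at 0. In each panel the 3 libraries at 6 h lie below the 3 saline libraries, and the 15 min libraries lie far apart.

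Averaged over the 4 globin rows, the log2 signal was 4.34 ± 0.15 (SD, n = 3) in saline, 4.20 ± 0.72 (n = 2) at 15 min, 4.46 ± 0.39 (n = 3) at 1 h and 3.86 ± 0.18 (n = 3) at 6 h. Each of the 4 rows had its group means in the order 1 h, saline, 15 min and 6 h. The groups at 1 h, in saline and at 15 min overlapped in all 4 rows, so that these neighbours did not differ beyond their spread.

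At 6 h against saline the limma changes were -0.44 (SE 0.25) for Hba-a1, -0.53 (SE 0.26) for Hba-a2, -0.45 (SE 0.25) for Hbb-bs and -0.52 (SE 0.28) for Hbb-bt. These are 1.35-fold to 1.44-fold lower signals, and none passed the test (limma, adjusted p = 0.721 for each). The 95% interval for Hba-a1 ran from -0.99 to 0.12, which spans no difference. Below every saline library at 6 h were 4 of the 7 members, against 8.78% of 26517 rows. They are the 4 globin rows, 2 near-identical pairs with r of 0.93 to 0.962 over libraries. They therefore do not count as 4 independent rows. In the 4-group fit no member was called at 6 h (0 of 7, with 0 at an unadjusted p under 0.05, limma). No row of the table was called either (0 of 27707, 0%). That fit pools the spread of all groups. The SD of Hba-a1 was 0.194 in saline and 0.045 at 6 h, but 0.732 at 15 min and 0.365 at 1 h. Fitted on saline and 6 h alone, the limma p was 0.0031 to 0.0217 for the globins and 0.0182 for S100a8. It was 0.226 for S100a9 and 0.996 for Slc4a1, and adjusted p was 0.668 or higher for all 7. Without any single library these globin changes stayed between -0.64 and -0.27. The choroid plexus marker mean (12 genes) also ranged lower at 6 h, from -4.11 to -1.59 against -1.26 to -0.79 in saline. Its part in the globin values was not tested.

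At 15 min the changes against saline were -0.09 (SE 0.28) for Hba-a1, -0.30 (SE 0.29) for Hba-a2, -0.06 (SE 0.28) for Hbb-bs and -0.12 (SE 0.32) for Hbb-bt, with limma adjusted p from 0.648 to 0.944. Without 15 min replicate 3 these 4 signs turned, with values up to 0.43. Centring each library on its median over rows with a value in every library turned 3 as well (Hba-a1, Hbb-bs and Hbb-bt). At 1 h the changes were 0.14 (SE 0.25), 0.09 (SE 0.26), 0.16 (SE 0.25) and 0.07 (SE 0.28) in the same order, with adjusted p from 0.803 to 0.936. Without 1 h replicate 2 they were negative for Hba-a1, Hba-a2 and Hbb-bt (lowest -0.18 for Hbb-bt). No member was called at 15 min (0 of 7, limma, 0 at an unadjusted p under 0.05), where 0.239% of all rows were, or at 1 h (0 of 7, 0 at an unadjusted p under 0.05), where 0.877% were. No member had every insulin library above or below every saline library at 15 min, against 6.96% of rows higher and 31.1% lower, or at 1 h, against 6.27% higher and 21.5% lower. Since the 3 insulin groups share the saline libraries, these comparisons are not independent of each other.

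The 6 h libraries were also set against those at 1 h. The change itself uses no saline library, but its SE and p rest on the spread of all 4 groups. The changes were -0.58 for Hba-a1, -0.61 for Hba-a2, -0.61 for Hbb-bs and -0.59 for Hbb-bt, with limma p from 0.0348 to 0.0631 and adjusted p from 0.4 to 0.479. Without 1 h replicate 2 they were -0.41, -0.44, -0.48 and -0.35, with adjusted p from 0.786 to 0.876. Of the 7 members tested, 4 (Hba-a1, Hba-a2, Hbb-bs and S100a8) had an unadjusted limma p under 0.05 and no overlap. Every 6 h library was lower in 3.17% of 26317 rows, and the share of rows with such a p was not computed. Hba-a1, Hba-a2 and Hbb-bs moved together and are not independent rows. None of the 7 was called (0.0108% of all rows were). In the remaining comparisons between insulin times none of the 7 was called in limma, and 0 had an unadjusted p under 0.05, where 0% of all rows were called at 1 h against 15 min and 0.00723% at 6 h against 15 min. At 6 h against 15 min 1 member, Slc4a1, lay lower in every library, compared with 7.08% of rows.

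The globin rows kept close step within libraries. Pearson's r over the 11 libraries ran from 0.93 to 0.962 in the 6 globin pairs (permutation p 2e-05 to 6e-05, two-sided; adjusted p 0.00037 over 37 relations), and Spearman's rho from 0.909 to 0.964 (permutation p 2e-05 to 0.00031). Without the 2 libraries farthest from the median, r stayed between 0.875 and 0.959, and with group means removed between 0.887 and 0.949. The difference Hba-a1 minus Hbb-bs, 2 genes on different chromosomes, had an SD of 0.14 over libraries, against SDs of 0.38 and 0.39 for the rows themselves. The other globin pairs had SDs of their difference from 0.12 to 0.15.

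Slc4a1, the anion exchanger (band 3) of the red cell membrane, had log2 signals of -7.36, -8.79 and -7.81 in saline, -5.68 and -7.62 at 15 min, -8.75, -3.92 and -8.00 at 1 h, and -7.85, -8.01 and -8.09 at 6 h. Only 1 h replicate 2 and, less far, 15 min replicate 1 stood above the rest, and the other 9 lay between -8.79 and -7.36. The changes were 1.34 (SE 1.20) at 15 min, 1.10 (SE 1.08) at 1 h and 0.00 (SE 1.08) at 6 h, with limma adjusted p of 0.624, 0.671 and 0.999. Without 1 h replicate 2 the 1 h change was -0.39. Without 15 min replicate 1 the 15 min change was 0.36, and without replicate 3 it was 2.31. Its range over libraries was 29.3-fold, compared with 2.12-fold to 2.47-fold for the globins. These ranges were not set against those of rows of like signal.

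Alas2 is the red cell enzyme of the first step of haem synthesis. It had values of -11.00, -10.88 and -10.99 in saline, -9.23 at 15 min replicate 1, -9.13 and -9.82 at 1 h replicates 2 and 3, and -8.95 and -8.56 at 6 h replicates 1 and 3, near the bottom of the scale. There was no value in 3 libraries, 15 min replicate 3, 1 h replicate 1 and 6 h replicate 2. All 5 insulin libraries with a value lay above the saline libraries, and the missing ones cannot be placed on that scale. Those without a value ranked 10, 7 and 11 of 11 for the globin mean, in the order given. The share of all rows with such a pattern was not computed. Without the filter, limma gave 1.48 (SE 0.34, adjusted p = 0.133) at 1 h and 2.21 (SE 0.34, adjusted p = 0.408) at 6 h. At 15 min, with 1 library, the change was 1.73. These fits used the libraries with a value alone.

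S100a8 had log2 signals of -3.07, -2.41 and -4.04 in saline, -2.36 and -5.15 at 15 min, -2.17, 0.33 and -3.26 at 1 h, and -3.75, -6.21 and -6.53 at 6 h. S100a9 had -5.08, -4.01 and -6.14 in saline, -3.11 and -6.78 at 15 min, -3.39, -0.84 and -6.93 at 1 h, and -6.03, -5.87 and -5.43 at 6 h. Both genes were highest in 1 h replicate 2. The S100a8 groups at 6 h and in saline overlapped, because 6 h replicate 1 lay above saline replicate 3, while every 6 h library lay below every 1 h library.

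**Figure D2:**
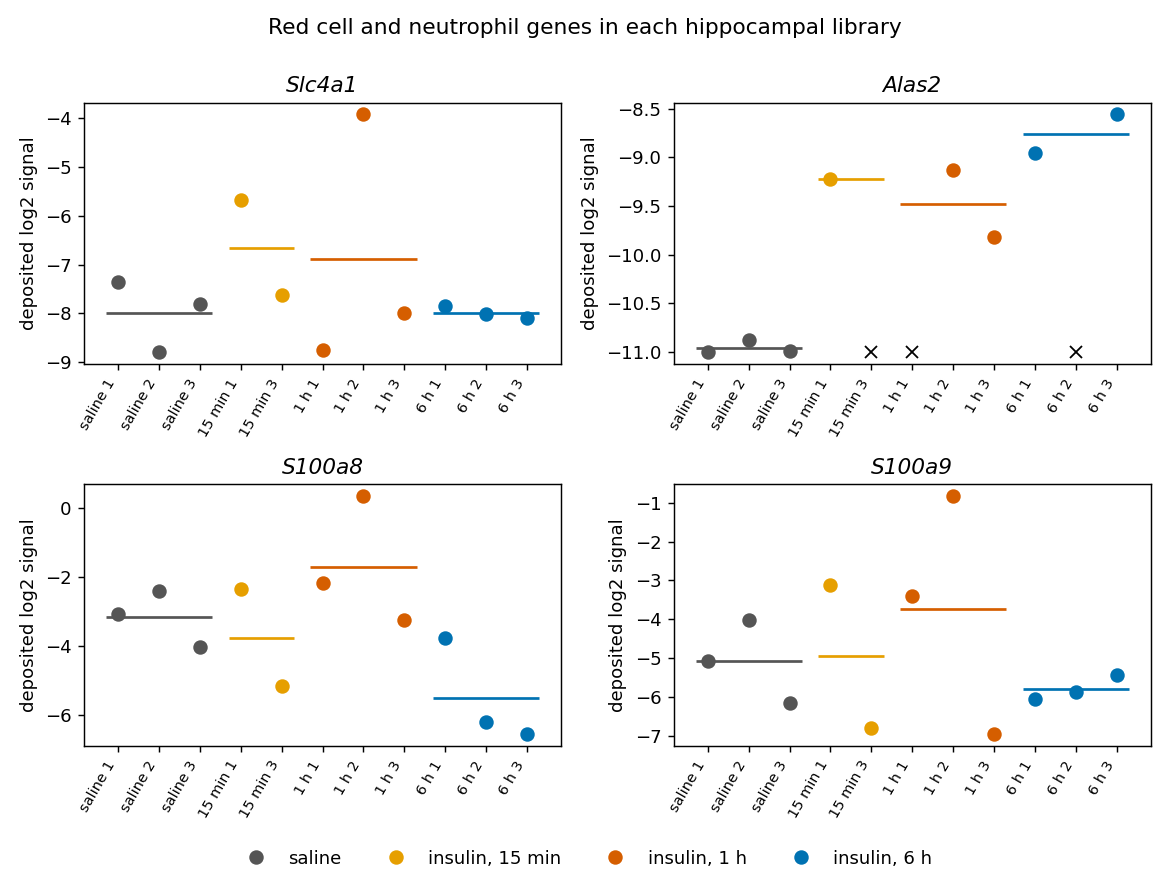
Deposited log2 signal of Slc4a1, Alas2, S100a8 and S100a9 in each library (points) with the group mean over libraries with a value (lines); a cross marks a library with no value and its height carries no meaning. The point of 1 h replicate 2 is the highest for Slc4a1 (-3.92), S100a8 (0.33) and S100a9 (-0.84).

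S100a8 was -2.33 (SE 1.06, 95% interval -4.69 to 0.03) against saline at 6 h, with a limma p of 0.0527 and an adjusted p of 0.714. At 1 h it was 1.47 (SE 1.06, adjusted p = 0.552), and 0.46 without 1 h replicate 2. At 15 min it was -0.58 (SE 1.19, limma adjusted p = 0.852), and 0.81 without 15 min replicate 3. At 6 h against 1 h it was -3.80 (SE 1.06, interval -6.16 to -1.44), a 13.9-fold lower signal with a limma p of 0.00493 and an adjusted p of 0.248. Without 1 h replicate 2 it was -2.79, with an adjusted p of 0.603. S100a8 had the smallest p of the 7 members in the F test over the 4 groups, with a limma p of 0.0323 and an adjusted p of 0.305, and 0 of 7 members passed it (0.365% of all rows did).

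S100a9 differed from saline by 0.13 (SE 1.54) at 15 min, 1.36 (SE 1.37) at 1 h and -0.70 (SE 1.37) at 6 h, with limma adjusted p of 0.977, 0.683 and 0.898. Without 1 h replicate 2 the 1 h value was -0.08. The 2 calprotectin genes did not keep as close a step as the globins: S100a8 minus S100a9 ran from -1.10 in 6 h replicate 3 to 3.67 in 1 h replicate 3, with an SD of 1.29. Their r was 0.774 (permutation p = 0.00491, adjusted p = 0.0202) and their rho 0.709 (permutation p = 0.0184, adjusted p = 0.0638), with r = 0.69 without the 2 farthest libraries.

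**Figure D3:**
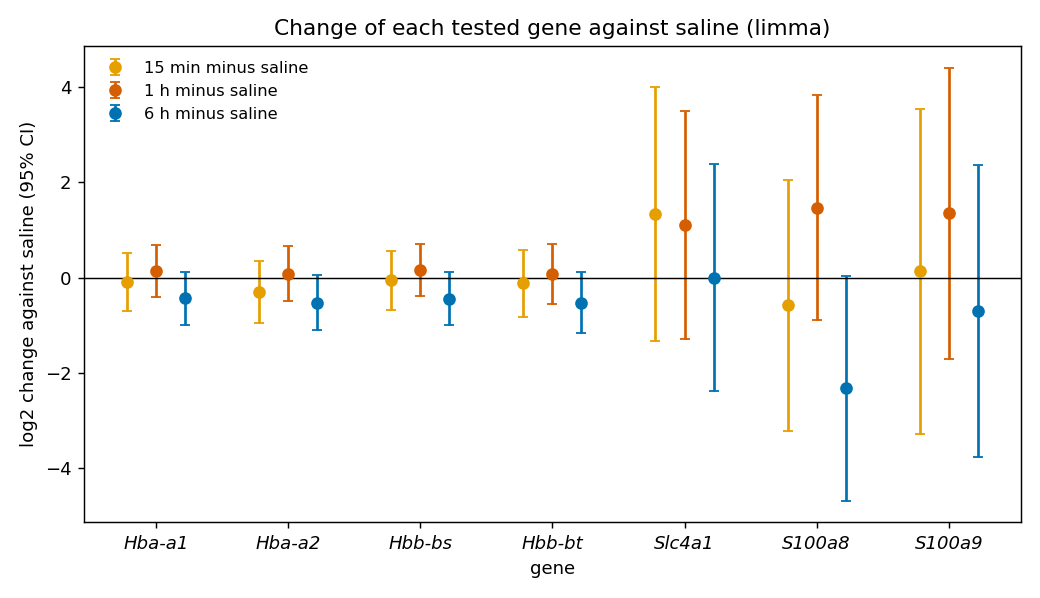
Log2 change against saline of each tested gene at 15 min, 1 h and 6 h (points) with its 95% confidence interval from limma (bars). All 21 intervals include 0, and those of Slc4a1, S100a8 and S100a9 are wider than those of the globins.

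The medians over the 7 members were -0.09 at 15 min, 0.16 at 1 h and -0.52 at 6 h, beside medians over all tested rows of -0.14, -0.11 and -0.04. Spread within groups set the members apart from each other. The residual SD of the globins was 0.36 to 0.41, at percentiles 68.5 to 74.1 of 25771 rows. That of Slc4a1, S100a8 and S100a9 was 1.53, 1.54 and 2.00, at percentiles 99.8, 99.8 and 99.9. The percentiles are over rows of all signal levels, and rows of like signal were not compared. Slc4a1 had group means from -7.99 to -6.65, and the lowest mean kept by the filter was -8.66.

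Some globin and neutrophil genes moved together by Pearson's r, while no such pair had an adjusted p under 0.05 on ranks. Over the 8 pairs of a globin and a neutrophil gene, r ran from 0.555 to 0.787 (permutation, adjusted p 0.0201 to 0.114) and rho from 0.427 to 0.727 (adjusted p 0.0613 to 0.3). Without the 2 farthest libraries r ran from 0.227 to 0.701, and with group means removed from 0.44 to 0.644. The lowest r with 1 library left out was 0.378. The 4 pairs of Slc4a1 and a globin had r from 0.569 to 0.671, which fell to between -0.13 and 0.552 without the 2 farthest libraries, so that some of these relations rest on those libraries. Slc4a1 with S100a8 and S100a9 had r of 0.579 and 0.661, and -0.37 and -0.71 without them, so these relations rest on 15 min replicate 1 and 1 h replicate 2.

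**Figure D4:**
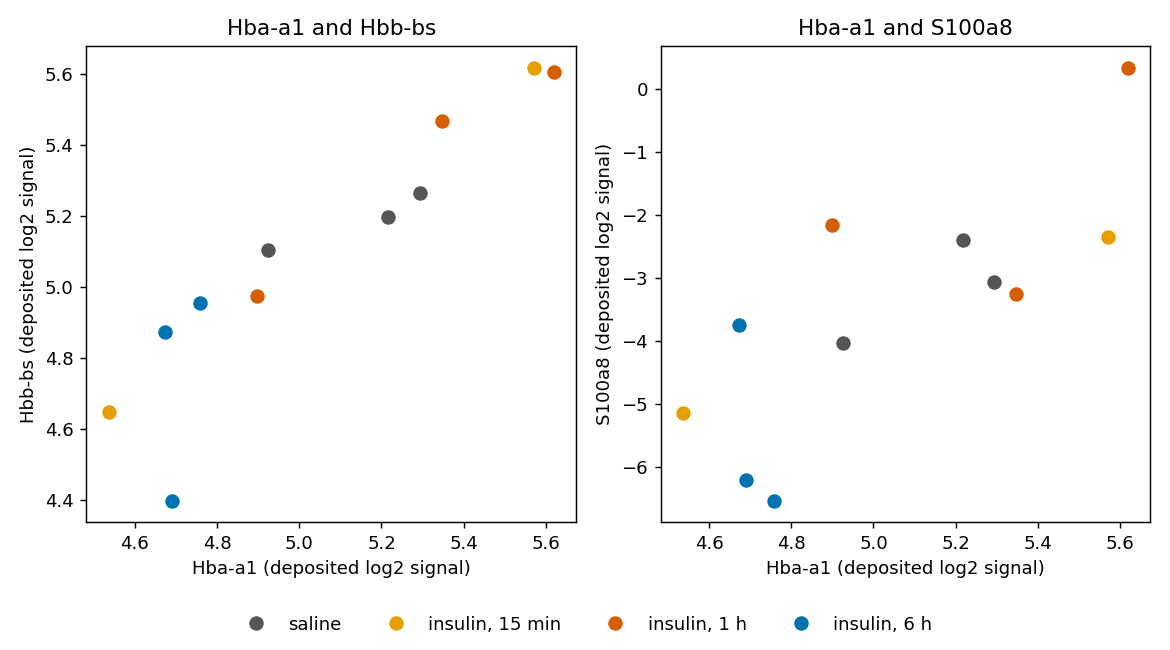
Deposited log2 signals of Hba-a1 (x axis) against Hbb-bs (left, r = 0.93) and S100a8 (right, r = 0.779), with 1 point per library coloured by group. The globins lie close to a line, and S100a8 scatters more widely at a given Hba-a1 signal.

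The library of 1 h replicate 2 exceeded the median of the other 10 libraries by 4.01 for Slc4a1 (16.1-fold), 3.84 for S100a8 (14.3-fold) and 4.81 for S100a9 (28.1-fold), and by 0.57 to 0.79 for the globins (1.48-fold to 1.73-fold). It was ahead of the next library by more than 1 on the log2 scale for these 3 of the 7 members, compared with 20 of 26631 rows (0.0751%). Among further genes with a value in every library, Ngp, a neutrophil granule gene, was so far ahead (1 of 18 neutrophil genes, 0 of 27 red cell genes). Ngp was at -2.12 there and between -7.97 and -4.66 elsewhere.

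With genes that lacked a value in some libraries counted as well, 6 of 31 further neutrophil genes (Ngp, Camp, Ltf, Mmp8, Elane and Cd177) and 1 of 31 red cell genes (Hemgn) were that far ahead. Of the same 31 neutrophil genes, 20 lay above the median of the other libraries and 11 below it. Of the 31 red cell genes 19 lay above and 12 below. The shares of all rows for these counts were not computed. Over rows with a value in every library, this library differed from the median of the others by a median of -0.07. Genes with missing values were set only against libraries with a value, 3 for Elane and 4 for Mmp8. Their signals here, -5.63 and -6.76, were below the library median of -3.20. Ltf (lactoferrin) exceeded the median of the others by 3.74 (13.4-fold), Camp (cathelicidin) by 2.56 (5.9-fold) and Cd177, a neutrophil surface protein, by 3.14 (8.81-fold). Hemgn, a nuclear protein of red cell precursors, exceeded it by 2.29 (4.89-fold). Prtn3, a granule protease, stood at -0.37 relative to it, and the receptor gene Mrgpra2b at -2.77, where its signal was the lowest of the 11 libraries. Ly6g, the neutrophil surface marker, and Cldn13, a claudin of red cell precursors, had a value in no other library, which held for 0.329% of 39834 rows with a value. These genes were named after their values were seen. The library was the highest of all for 10 of 34 further neutrophil genes (29.4%) and 9 of 33 further red cell genes (27.3%), against 6.89% of all rows.

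**Figure D5:**
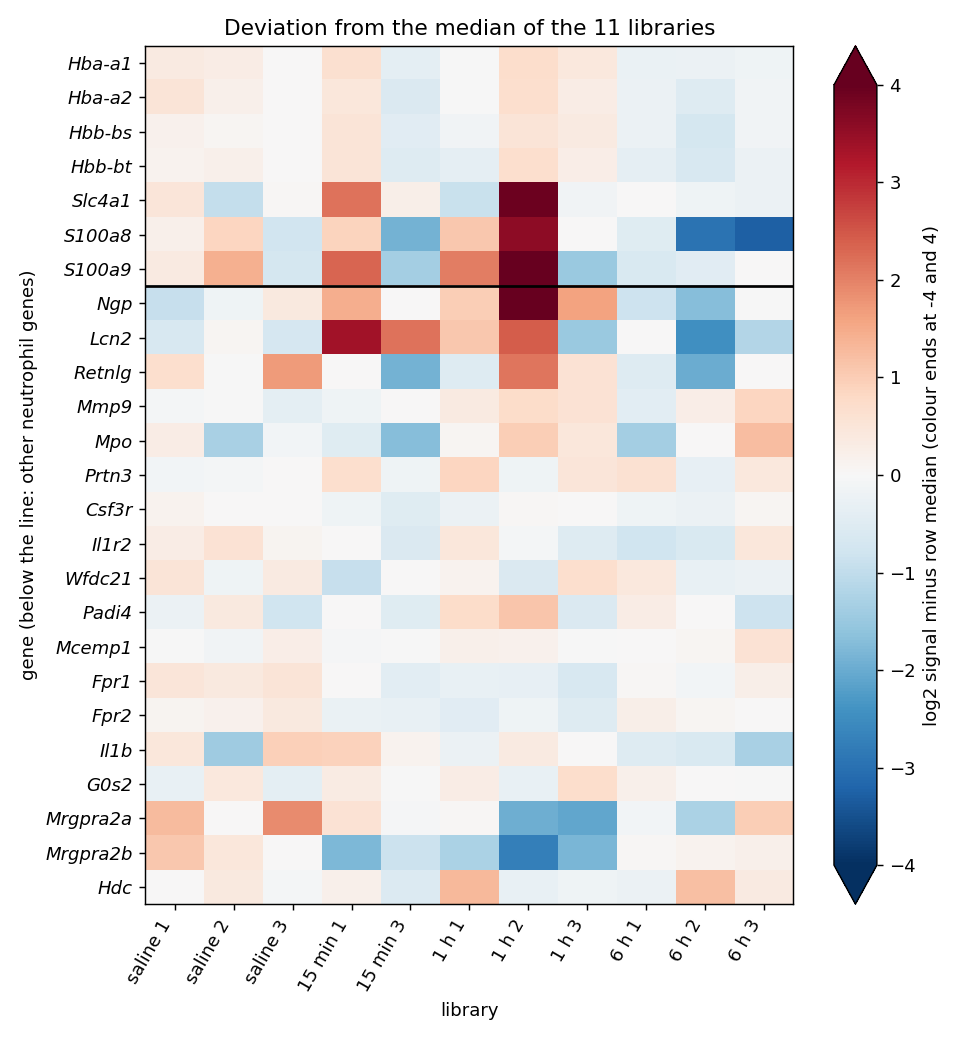
Log2 signal minus the median of the 11 libraries for the 7 tested members (above the line) and 18 other neutrophil genes with a value in every library (below), where red is higher and blue lower and colours end at -4 and 4. The column of 1 h replicate 2 is dark red for Slc4a1, S100a8, S100a9 and Ngp and pale for genes such as Csf3r and Mcemp1.

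Further genes of the same systems were counted from lists. Of all rows, 0.239% were called against saline at 15 min, 0.877% at 1 h and 0% at 6 h. Of 6 other globin genes tested, 0 rose and 0 fell against saline at any time; Cygb (cytoglobin) was between 1.57 and 2.21 and Ngb (neuroglobin, of neurons) between -0.83 and 0.51 over libraries. Of 27 further red cell genes, 0 rose and 0 fell, with median changes of -0.08, -0.09 and -0.03 at 15 min, 1 h and 6 h. The list members with the highest signals, Car2, Bnip3l, Tfrc, Mkrn1, Dmtn and Slc2a1, are also expressed by brain cells, and Car2 ranged only from 2.84 to 3.43.

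At 1 h against saline 0.877% of all rows were called. Of 9 haem synthesis genes, 0 rose and 1 fell. This was Ppox, the oxidase of the step before ferrochelatase, at -0.44 (SE 0.08) at 1 h with a limma adjusted p of 0.0322, a call lost in 12 of 19 alternative analyses (adjusted p up to 0.141). Fech, which inserts the iron, was at -0.19 at 1 h (limma, adjusted p = 0.194). Of 20 further neutrophil genes, 0 rose and 1 fell, Mrgpra2b, a receptor gene, at -2.47 (SE 0.44) at 1 h with a limma adjusted p of 0.0355, lost in 11 of the 19. Csf3r, the receptor of granulocyte colony-stimulating factor, ranged from -3.45 to -2.84 over libraries and Fpr1, a formyl peptide receptor, from -4.49 to -3.32. The lists of 12 platelet, 12 lymphocyte, 11 monocyte and 11 haem and globin clearance genes had 0 calls in either direction against saline at each time (limma).

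The rows most like the members were sought by Pearson's r over the 11 libraries. For the mean of the 4 globins and Slc4a1 they were Klhdc7a (0.892), Zcchc8 (0.892), Apod (0.829), Lsr (0.824), Tlr8 (0.821) and Rgs18 (0.82). With the globins alone, an alternative chosen after seeing the data, 0 of these 6 stayed. For the mean of S100a8 and S100a9 they were Irx2 (0.929), Nwd2 (0.904), Serpinh1 (0.89), Slc25a25 (0.886), Guca1b (0.876) and Apln (0.865). Without 1 h replicate 2, 0 of 6 stayed for the first mean and 1 of 6, Irx2, for the second.

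Markers of tissues next to the hippocampus and of cells within it were set beside the members. Hba-a1 had r = 0.615 with the choroid plexus mean (permutation p = 0.0452, adjusted p = 0.0879; rho = 0.6), 0.599 with the meninges mean (permutation p = 0.0543, adjusted p = 0.0957) and 0.368 with the endothelial mean (permutation p = 0.274). The choroid plexus mean was highest in 15 min replicate 1 (0.15), a globin-rich library, and lowest in 6 h replicate 2 (-4.11), the lowest for the globin mean. The library of 1 h replicate 2, highest for the globin mean, ranked 8 of 11 for the choroid plexus mean. S100a8 had r = -0.732 with the astrocyte mean (permutation, adjusted p = 0.0263, with rho = -0.8 and adjusted p = 0.0241). That mean ran only from 2.593 to 2.875 over libraries. With the neuron mean S100a8 had r = -0.522 (permutation, adjusted p = 0.142) and rho = -0.655 (permutation, adjusted p = 0.0999). With group means removed, its r was -0.778 for astrocytes and -0.786 for neurons. S100a8 also had r = -0.595 with the hippocampal marker mean (permutation, adjusted p = 0.0957). With the choroid plexus and meninges means its r was 0.25 and 0.405. For Hba-a1, r with the astrocyte mean was -0.509 (permutation, adjusted p = 0.151). The hippocampal marker mean was lowest in 1 h replicate 2 (-1.10). The part of these tissues and cells in the members' values was not tested.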

How the data were processed

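Per the submitters' processing notes, bcl2fastq, Partek 6.7 and build GRCm38 were used, with no roles given. The sources used here name no aligner or annotation. The deposited values are the authors' log2 signals per gene symbol. All libraries share 1 distribution, so they are quantile-normalized. A cell without a value was treated as missing. Tests used R 4.3.3 and limma 3.58.1 on the values as deposited. Rows in the lowest 40% by mean were left out, which kept 27721, of which 1950 had a missing value. A model of the 4 groups was fitted to all 11 libraries, with empirical Bayes shrinkage and a mean-variance trend. Tests were two-sided and adjusted by Benjamini-Hochberg at 0.05 over all rows tested. Correlations had 100000 permutations. The tests were checked on simulated data.

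The members and gene lists were chosen with earlier results of these data known. All members are named, and of the other lists those with the highest mean signal; the 6 rows most like the members passed over predicted and clone-named rows. Alternatives changed the normalization, filter, trend, groups fitted, replicate block and libraries.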

Additional observations from a re-analysis of the deposited data

How the results depend on the processing

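In 132 alternative counts of members called the count was 0 in all 132, and 0 of 532 alternative member changes passed the threshold (limma). Median centring, on rows with a value in every library, turned the 15 min changes of Hba-a1 (0.08), Hbb-bs (0.12) and Hbb-bt (0.053). The medians of these rows were -2.027 and -2.085 at 15 min and -1.855, -1.941 and -1.858 in saline. Centring shifts all rows of a library alike. Why the medians differ was not tested. With 1 library left out, 16 of 308 changes turned. At 15 min the ranges were -0.61 to 0.43 for Hba-a1, -0.82 to 0.22 for Hba-a2, -0.54 to 0.43 for Hbb-bs, -0.63 to 0.39 for Hbb-bt, -1.98 to 0.81 for S100a8 and -1.71 to 1.97 for S100a9. At 1 h they were -0.022 to 0.34 for Hba-a1, -0.086 to 0.25 for Hba-a2, -0.18 to 0.35 for Hbb-bt, -0.39 to 2.03 for Slc4a1 and -0.084 to 2.96 for S100a9. At 6 h Slc4a1 ran from -0.40 to 0.31, and at 6 h against 1 h from -2.03 to 0.39. Leaving out 1 of the 15 min libraries leaves that group with 1, which is assumed to vary like the others.

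The replicate block called 0 members, with adjusted p from 0.192 to 0.999. Same-numbered libraries deviated together in 7 of 15 pairs (r over 0.1, median 0.087) and differently numbered ones in 5 of 30 (median -0.061). With group means removed, the 2 libraries of the 15 min group mirror each other, so these pairs are not independent. The values cannot decide whether the libraries are paired. They were not treated as paired because the labels do not say what a replicate number marks. Fitted on saline and 6 h alone, the unadjusted p was 0.00573 for Hba-a1, 0.0112 for Hba-a2, 0.0217 for Hbb-bs, 0.0031 for Hbb-bt and 0.0182 for S100a8, with adjusted p from 0.668 to 0.758 in limma. Over the alternatives the rows called in all ran from 1 to 114 at 15 min (66 as reported), 42 to 477 at 1 h (243) and 0 to 6 at 6 h (0). Groups of 2 and 3 libraries limit precision, and depth is unknown.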
